A study of Mus musculus and Sus scrofa with 30 samples.

Results

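The genes described here are 38 that carry or report on glucose breakdown and the response to low oxygen, followed through fat-cell induction in a mouse line and in pig cells. They were listed by name, with earlier results of these data known, and matched to the 2 deposited expression tables by symbol. All 38 were found among the 24843 genes of the mouse table, in 39 rows, because Aldoa has a second row, too low to test, with a mean of 7.98 normalized counts over the 15 libraries. Among the 34307 genes of the pig table, 34 members were found, under the symbols GPI for Gpi1 and CA9 for Car9. Pgam1, Slc16a1, Bnip3 and Mxi1 were not analysed in pig cells. A mean of at least 10 normalized counts over the 15 libraries of a table was needed for testing, which left 36 members in mouse (not Aldoc and Car9) and 33 in pig (not PFKFB1).

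Glycolysis turns 1 glucose into pyruvate through a fixed chain of enzymes, from the hexokinases that trap glucose in the cell to pyruvate kinase, and lactate dehydrogenase then turns pyruvate into lactate. The transporter Slc2a1 (GLUT1) brings glucose in, Slc16a1 and Slc16a3 carry lactate across the membrane, and the Pfkfb enzymes set the level of fructose 2,6-bisphosphate, which drives the phosphofructokinase step. Under low oxygen the transcription factor HIF-1, whose oxygen-regulated subunit is encoded by Hif1a, escapes the prolyl hydroxylases Egln1 and Egln3 and raises many of these genes together with Vegfa, Bnip3, Car9, Ndrg1, Adm and the collagen hydroxylases. Hif1a activity is set largely at the protein level, which mRNA does not show. In fat cells glucose also supplies the glycerol backbone of triglycerides, and insulin-driven uptake runs through another transporter, Slc2a4 (GLUT4).

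The first system was 3T3-L1, a line of mouse embryonic fibroblasts committed to the fat lineage. The second was porcine DFAT cells, fat cells from subcutaneous tissue that lost their fat and regained a fibroblast-like, dividing state. Each had 5 groups of 3 libraries taken on day 5 of induction: DMSO as vehicle, dicoumarol, magnolol, both compounds together (the combination), and rosiglitazone. All 3T3-L1 groups were induced in 10% serum with IBMX at 37.5 µM, insulin at 0.75 µg/mL and dexamethasone at 75 nM. All DFAT groups were induced in 2% serum with biotin at 20 µM, IBMX at 12.5 µM, pantothenate at 10 µM and dexamethasone at 0.5 µM, with no insulin named. Dicoumarol is an anticoagulant known to block the enzyme NQO1, magnolol is a plant lignan from magnolia, and rosiglitazone activates PPARγ, the master receptor of fat-cell formation. Doses of the compounds are not stated in the labels, nor whether libraries of 1 group came from separate cultures, so p-values measure the spread between these samples.

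The estimated depth was between 22.8 M and 30.7 M reads in 3T3-L1 and between 44.8 M and 70.5 M in DFAT cells. Values are gene counts divided by a size factor per library (normalized counts). The sums of these values were 62.8 M to 69.3 M in the DFAT combination libraries and 61.6 M to 66.7 M with magnolol, above the 56.9 M to 59.3 M with vehicle. Adipocyte markers checked the label of the cells: the 12-gene list (11 of 12 with a mean of at least 10) summed to 52532 to 70265 normalized counts with vehicle in 3T3-L1, 75611 to 108508 under dicoumarol, 105170.0 to 148231 under magnolol, 129342 to 200871 under the combination and 346515 to 593611 under rosiglitazone. Of its 11 tested genes 0, 8, 11 and 11 rose in that order. In DFAT cells the 11 listed genes summed to 19095 to 21915 with vehicle, 24905 to 26777 under dicoumarol, 40304 to 48416 under magnolol, 66110 to 72960 under the combination and 85133 to 92206 under rosiglitazone, and 6, 9, 11 and 10 of 11 rose. Every treated group lay above vehicle in this sum in both systems. Macrophage, endothelial, muscle and epithelial lists summed to at most 239 in every library of both systems, and CDH1 was listed at 0 in all DFAT libraries. The part of the rising fat-cell markers in the members' changes was not tested. In bulk samples a change in the number of fat cells and a change in RNA per cell cannot be told apart.

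Many members are known targets of HIF-1, which binds the core ACGTG or GCGTG, so the mouse promoters were read for both, on both strands. RefSeq (GRCm38.p6) gave windows from 250 bases before to 50 after a start for 35 of the 38 members, in 57 windows. At least 1 core was found in 44 of the 57 windows (77.2%), against 43.8% of all 32851 windows of the same length. By gene, 33 of 35 members (94.3%) had a core in at least 1 window, against 46.7% of 27025 genes. Members had more windows per gene than genes in general, which raises their share by gene. The background was not matched for expression or base composition. The 250 bases before the start are shown for 4 members that differ in cores or in direction: Ldha, the muscle-type lactate dehydrogenase (chr7:46845554-46845803, plus strand, 5 ACGTG cores in this stretch), Bnip3, a mitophagy receptor (chr7:138909507-138909756, minus strand, both cores), Adm, the peptide hormone adrenomedullin (chr7:110627407-110627656, plus strand, 2 GCGTG cores), and Tpi1, triosephosphate isomerase (chr6:124814159-124814408, minus strand, neither core). Capitals mark the cores as read on either strand, and CACGTG counts on both.
Ldha: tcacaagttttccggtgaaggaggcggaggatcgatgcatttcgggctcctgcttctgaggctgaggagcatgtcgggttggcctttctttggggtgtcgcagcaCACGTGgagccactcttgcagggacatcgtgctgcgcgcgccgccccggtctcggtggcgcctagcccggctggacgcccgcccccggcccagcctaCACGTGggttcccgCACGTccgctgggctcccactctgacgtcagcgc
Bnip3: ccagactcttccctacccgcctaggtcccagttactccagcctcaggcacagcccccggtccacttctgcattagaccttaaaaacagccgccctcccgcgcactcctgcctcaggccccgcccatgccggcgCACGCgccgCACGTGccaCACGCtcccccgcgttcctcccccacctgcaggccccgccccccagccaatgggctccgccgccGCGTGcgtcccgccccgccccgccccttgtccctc
Adm: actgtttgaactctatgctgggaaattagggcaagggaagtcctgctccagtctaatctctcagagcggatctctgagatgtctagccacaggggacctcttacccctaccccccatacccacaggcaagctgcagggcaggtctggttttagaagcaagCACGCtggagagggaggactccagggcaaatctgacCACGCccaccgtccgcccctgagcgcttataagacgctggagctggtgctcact
Tpi1: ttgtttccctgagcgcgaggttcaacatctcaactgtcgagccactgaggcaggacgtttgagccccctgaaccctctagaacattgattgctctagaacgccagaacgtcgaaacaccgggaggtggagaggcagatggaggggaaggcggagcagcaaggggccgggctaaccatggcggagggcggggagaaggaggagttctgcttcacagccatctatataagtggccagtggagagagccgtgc
With rosiglitazone in 3T3-L1, Ldha, Bnip3 and Tpi1 rose and Adm fell, so promoters with and without a core stood on the rising side. Of the members with a window, a core was present in 11 of 12 that rose with rosiglitazone, 8 of 8 that fell and 12 of 13 that did not pass the test. A match is a description of letters, and the factor's binding was not measured here.

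In 3T3-L1 cells members were called in both directions with rosiglitazone: several glycolytic enzymes and Pfkfb3 were higher, and Hif1a, Slc2a1 and several low-oxygen targets lower. Of 36 members, 20 passed the test, 12 higher and 8 lower, where 40.1% of all genes passed (20.3% higher, 19.9% lower). The lower count was near the share of all genes. The members' median log2 fold change was 0.14, against −0.00148 over all genes. The combination called 4 members, 3 higher and 1 lower, where 5.22% of all genes passed (3.86% higher, 1.36% lower), and magnolol called 2, both higher, where 1.23% passed (1.07% higher). With dicoumarol limma called 0 members and 0.0% of all genes, as did limma-voom, while 2 members and 393 genes had an unadjusted p under 0.05. In this system same-numbered libraries deviated together, and adding that number to the model as a block called 1 member with dicoumarol, 5 with magnolol (3 higher, 2 lower), 11 with the combination (6 higher, 5 lower) and 24 with rosiglitazone. The block also called more genes in general, 0.502%, 4.96%, 13.5% and 49.8% of all genes in the same order. Fibroblast and preadipocyte markers moved beside these members: 8 of 8 tested were lower with rosiglitazone (median log2 fold change −0.73) and 3 of 8 with the combination, and their sum was 379898 to 409080 normalized counts with vehicle and 216204 to 288110 with rosiglitazone. Their part in the members' changes was not tested. The magnolol count of members fell to 1 without vehicle replicate 1, vehicle replicate 3 or magnolol replicate 3, and to 0 without magnolol replicate 1. No share of all genes stands beside these counts.

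In DFAT cells the same agents gave another picture: dicoumarol and the combination lowered members, and rosiglitazone raised them. Dicoumarol called 5 of 33 members, all lower, where 1.94% of all genes passed (0.911% higher, 1.03% lower), and 29 of 33 fold changes were below 0, with a median of −0.20 against 0.000343 over all genes. The combination called 10, 8 lower and 2 higher, where 10.2% passed (6.11% higher, 4.06% lower), with a median of −0.17. Rosiglitazone called 14, all higher, where 10.8% passed (5.8% higher, 5.02% lower), with a median of 0.22. Magnolol called 4, 3 higher and 1 lower, where 4.22% passed (2.96% higher, 1.27% lower). Scaling every library to the same total, an alternative chosen after seeing the data, shifted the median of all genes by −0.14 with magnolol and −0.17 with the combination, and then called 1 member higher and 4 lower with magnolol and 1 higher and 17 lower with the combination. Under that scaling 17.4% of all genes passed with magnolol (2.11% higher, 15.3% lower) and 30.6% with the combination (3.64% higher, 26.9% lower), so the magnolol count of members, 5 of 33, was near the share of all genes. Single libraries also moved the counts: with dicoumarol 3 members were called without vehicle replicate 1 or 3 or dicoumarol replicate 2 or 3, with magnolol 2 without vehicle replicate 3 or magnolol replicate 1 or 3, with the combination 5 without combination replicate 3, and with rosiglitazone 8 without vehicle replicate 2. No share of all genes stands beside these counts without 1 library. With the replicate block more members were called under dicoumarol and the combination, where 4.52% and 17.8% of all genes passed. Those counts are given in the closing section. All 4 comparisons with vehicle share the vehicle libraries.

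**Figure D1:**
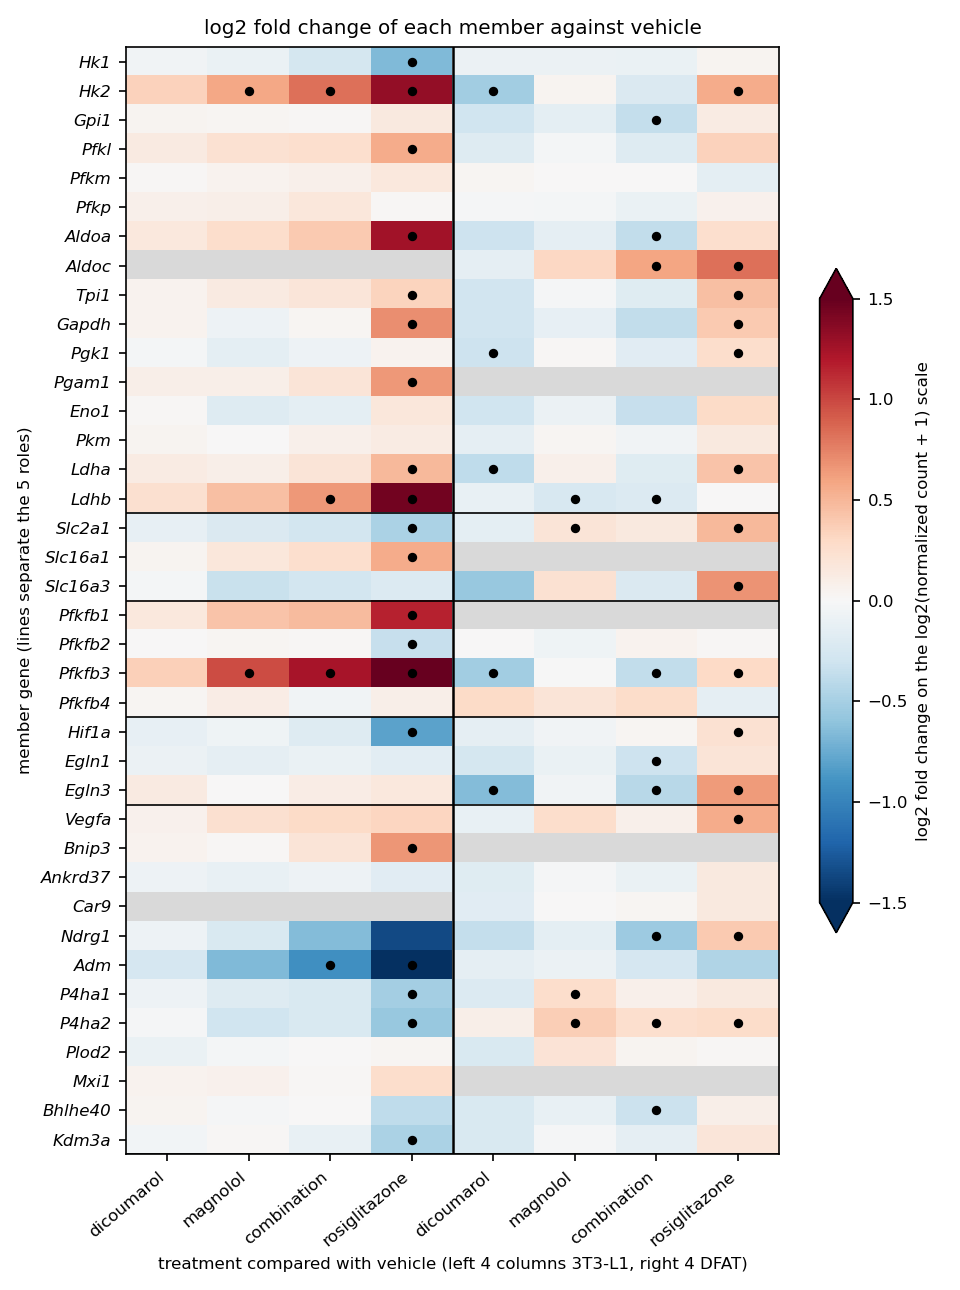
Log2 fold change of each member (rows, grouped by role) against vehicle in 3T3-L1 (left 4 columns) and DFAT cells (right 4 columns), in colour from −1.5 to 1.5, with grey where a gene was not tested and a dot where the limma adjusted p was under 0.05. The rosiglitazone column holds 12 higher and 8 lower members in 3T3-L1 and 14 higher members in DFAT cells, while the dicoumarol column of DFAT cells holds 5 lower members.

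Among the glycolytic enzymes of 3T3-L1, 8 of 15 rose and 1 fell with rosiglitazone, where 20.3% of all genes rose and 19.9% fell. Hk2, the insulin-responsive hexokinase of fat and muscle, rose with 3 of the 4 treatments. Its normalized counts were 1084, 1279.5 and 1035 with vehicle, 1418, 1510.3 and 1389 under dicoumarol, 1709.9, 1833 and 1545 under magnolol, 2136, 2059 and 1838 under the combination, and 2812, 2882 and 2781 under rosiglitazone. Every treated library lay above every vehicle library. The log2 fold change was 0.58 ± 0.09 (SE) under magnolol, 0.83 ± 0.09 under the combination and 1.32 ± 0.09 under rosiglitazone, a 2.50-fold rise (limma adjusted p = 0.0091, 0.000278 and 1.57e-07). With dicoumarol it was 0.35 ± 0.09, which passed only with the replicate block (limma adjusted p = 0.0336, without it 1). Hk1, the housekeeping hexokinase, went the other way. Its counts were 3099, 2827 and 3401 with vehicle, 2957, 2599.6 and 3469 under dicoumarol, 2767, 2658 and 3292 under magnolol, 2454, 2571 and 2759 under the combination, and 1569.8, 2217 and 2159.9 under rosiglitazone. The rosiglitazone libraries lay below all others, and the log2 fold change was −0.66 ± 0.14 (limma adjusted p = 0.00112).

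Aldoa, the aldolase of muscle and most other tissues, read 14840.2, 10122 and 17316 with vehicle, 16486, 12338 and 17978 under dicoumarol, 17938, 14952 and 16928 under magnolol, 18880.1, 17223 and 17937 under the combination, and 39529, 28145 and 32194 under rosiglitazone. Only the rosiglitazone libraries stood apart from vehicle, by 1.26 ± 0.18 (limma adjusted p = 5.39e-05). Ldhb, the heart-type lactate dehydrogenase, read 1289.7, 1079 and 1167 with vehicle, 1448, 1338 and 1388 under dicoumarol, 1807, 1602 and 1419 under magnolol, 2099, 1758 and 1708 under the combination, and 3619, 3006 and 3002 under rosiglitazone. Its libraries did not overlap with vehicle in any treatment, and it rose by 0.65 ± 0.11 under the combination and 1.44 ± 0.11 under rosiglitazone, 2.72-fold (limma adjusted p = 0.00264 and 2.88e-07). A copy listed beside it, Ldhb-ps, held 50.4% of the level of Ldhb, so reads may be split between them. With the copies added in, the rosiglitazone change was 1.42.

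Gapdh, which oxidises glyceraldehyde 3-phosphate and often serves as a reference gene, was not constant here. It read 6208, 3898 and 6893 with vehicle, 5885, 5598 and 5664 under dicoumarol, 5973, 5056 and 4676 under magnolol, 5704, 6241 and 4926 under the combination, and 12649, 7019.9 and 8088 under rosiglitazone. All 3 rosiglitazone libraries lay above vehicle, the first far above the other two, and the rise was 0.70 ± 0.20 (limma adjusted p = 0.0125). Ldha read 13257, 9224 and 10961 with vehicle, 14120, 9866 and 12401 under dicoumarol, 13377, 10842 and 11008 under magnolol, 13417, 12412 and 12056 under the combination, and 14518, 16906 and 15006 under rosiglitazone. It rose by 0.49 ± 0.14 under rosiglitazone (limma adjusted p = 0.0123). Pkm, pyruvate kinase, read 27504, 22644 and 23864 with vehicle, 27187, 23180.5 and 25829 under dicoumarol, 26549, 24126 and 23646 under magnolol, 27335, 26732 and 23984 under the combination, and 25338, 30491 and 24976 under rosiglitazone. Its groups overlapped throughout, with 0.13 ± 0.11 for rosiglitazone (limma adjusted p = 0.385).

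The other enzymes that rose with rosiglitazone in 3T3-L1 were Pgam1, phosphoglycerate mutase (0.66 ± 0.12), the liver phosphofructokinase Pfkl (0.55 ± 0.15) and Tpi1 (0.33 ± 0.12), with limma adjusted p = 0.000433, 0.00808 and 0.0322. Gpi1, Pfkm, Pfkp, Pgk1, Eno1 and Pkm did not pass. Copies of Eno1 (Eno1b, 287% of its level) and Pgk1 (Pgk1-rs7, 117%) exceeded the genes themselves, and Pgam1-ps2 reached 20.1% of Pgam1, so these members are uncertain. The Gapdh call was lost without vehicle replicate 2 or rosiglitazone replicate 1 or when only the groups compared were fitted (adjusted p by limma 0.0536 to 0.0778). The Ldha call was lost without vehicle replicate 2 (adjusted p by limma 0.0717), and the Tpi1 call without vehicle replicate 2 or 3 or rosiglitazone replicate 2 or 3, with no variance trend, when only the groups compared were fitted or when scaled to library totals (adjusted p by limma 0.0517 to 0.149).

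In DFAT cells most enzymes lay below vehicle with dicoumarol and above it with rosiglitazone. Of 15 tested, 14 were below 0 with dicoumarol, with 3 calls, all lower, where 1.94% of all genes passed (1.03% lower). With rosiglitazone 14 were above 0, with 6 calls, all higher, where 10.8% of all genes passed (5.8% higher). Summed over the 15, the level was 425481 to 468196 normalized counts with dicoumarol, 494446 to 574572 with vehicle and 595783 to 662089 with rosiglitazone. HK2 read 4147, 3365 and 3965 with vehicle, 2759, 2444 and 2740.1 under dicoumarol, 3953, 3612 and 4235 under magnolol, 3447, 3070.1 and 3302 under the combination, and 5632, 5276 and 5951 under rosiglitazone. The dicoumarol libraries were the lowest and the rosiglitazone libraries the highest, with no overlap with vehicle in either case. The changes were −0.53 ± 0.08 and 0.56 ± 0.08 (limma adjusted p = 0.00178 and 0.000165). With the combination the change was −0.22 ± 0.08 (limma adjusted p = 0.107).

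LDHA read 52846, 43794 and 52116 with vehicle, 39997, 36841 and 36748 under dicoumarol, 51216, 52736 and 51931 under magnolol, 47320.2, 44312 and 39904 under the combination, and 60154, 73202 and 66257 under rosiglitazone. It fell by 0.39 on the log2 scale with dicoumarol and rose by 0.42 ± 0.09 under rosiglitazone (limma adjusted p = 0.0264 and 0.00322). PGK1, phosphoglycerate kinase, which makes the first ATP of the chain, followed the same order, −0.31 ± 0.07 and 0.26 ± 0.07 (limma adjusted p = 0.0181 and 0.0145). TPI1 read 18268, 16268 and 16381 with vehicle, 14508, 13632 and 13426 under dicoumarol, 17216, 17763 and 15525 under magnolol, 16375, 15669 and 13152 under the combination, and 22612, 24800.2 and 22242 under rosiglitazone. It rose by 0.45 ± 0.08 under rosiglitazone (limma adjusted p = 0.00101). GAPDH read 53316, 43888 and 45019 with vehicle, 41657, 38070.1 and 36991 under dicoumarol, 47038, 45264 and 38639.5 under magnolol, 42331, 38973 and 29709.8 under the combination, and 62682, 66294 and 56761 under rosiglitazone. The third combination library was the lowest of the 15, and the rosiglitazone rise was 0.39 ± 0.12 (limma adjusted p = 0.039). PKM read 176186, 152913 and 156383 with vehicle, 151444, 147034 and 141825 under dicoumarol, 170838, 169066 and 154787 under magnolol, 161667, 154935 and 149930 under the combination, and 170263, 192010 and 174912 under rosiglitazone, with the dicoumarol libraries just below vehicle, the other groups overlapping it, and no call.

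ALDOC, the brain-type aldolase, was the enzyme that rose with the combination. It read 1797, 1426 and 1389 with vehicle, 1538, 1295 and 1345 under dicoumarol, 1922, 1973 and 1786 under magnolol, 2501, 2326 and 2114 under the combination, and 2748, 2899 and 2510.4 under rosiglitazone. The combination and rosiglitazone libraries lay wholly above vehicle, by 0.60 ± 0.10 and 0.83 ± 0.10 (limma adjusted p = 0.000474 and 1.12e-05). The ubiquitous ALDOA moved the other way with the combination, −0.37 ± 0.09, as did GPI, phosphoglucose isomerase, −0.35 ± 0.10, and LDHB, −0.21 ± 0.06 (limma adjusted p = 0.01, 0.0297 and 0.0258). LDHB was also lower with magnolol, −0.24 ± 0.06 (limma adjusted p = 0.0208). The pig row named LDHB spans only 1281 bases on chromosome 2, so its identity is uncertain.

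Several of these DFAT calls rested on single libraries or settings. With dicoumarol, the LDHA call was lost without vehicle replicate 1 or 3 or dicoumarol replicate 1, 2 or 3, with no filter on low values or with no variance trend (adjusted p by limma 0.0528 to 0.153), and the PGK1 call without vehicle replicate 1 or 3 or dicoumarol replicate 2 or 3 (adjusted p by limma 0.0646 to 0.123). With the combination, the ALDOA call was lost without vehicle replicate 1 or combination replicate 3 (adjusted p by limma 0.0575 to 0.0683), the GPI call without vehicle replicate 1 or combination replicate 3, with no filter on low values or with no variance trend (adjusted p by limma 0.0761 to 0.161), and the LDHB call without vehicle replicate 3 or combination replicate 2 or 3 or when only the groups compared were fitted (adjusted p by limma 0.0605 to 0.118). With magnolol, the LDHB call was lost without vehicle replicate 3 or magnolol replicate 1 or 3 or when only the groups compared were fitted (adjusted p by limma 0.0679 to 0.0933). With rosiglitazone, the GAPDH call was lost without vehicle replicate 2 or 3 or rosiglitazone replicate 1 or 2, with no filter on low values, with no variance trend or when scaled to library totals (adjusted p by limma 0.0733 to 0.151), and the PGK1 call without vehicle replicate 2 or rosiglitazone replicate 3 or when only the groups compared were fitted (adjusted p by limma 0.0529 to 0.0991). The calls of HK2, TPI1, LDHA and ALDOC with rosiglitazone, of HK2 with dicoumarol and of ALDOC with the combination were kept in every fit that left out a library.

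**Figure D2:**
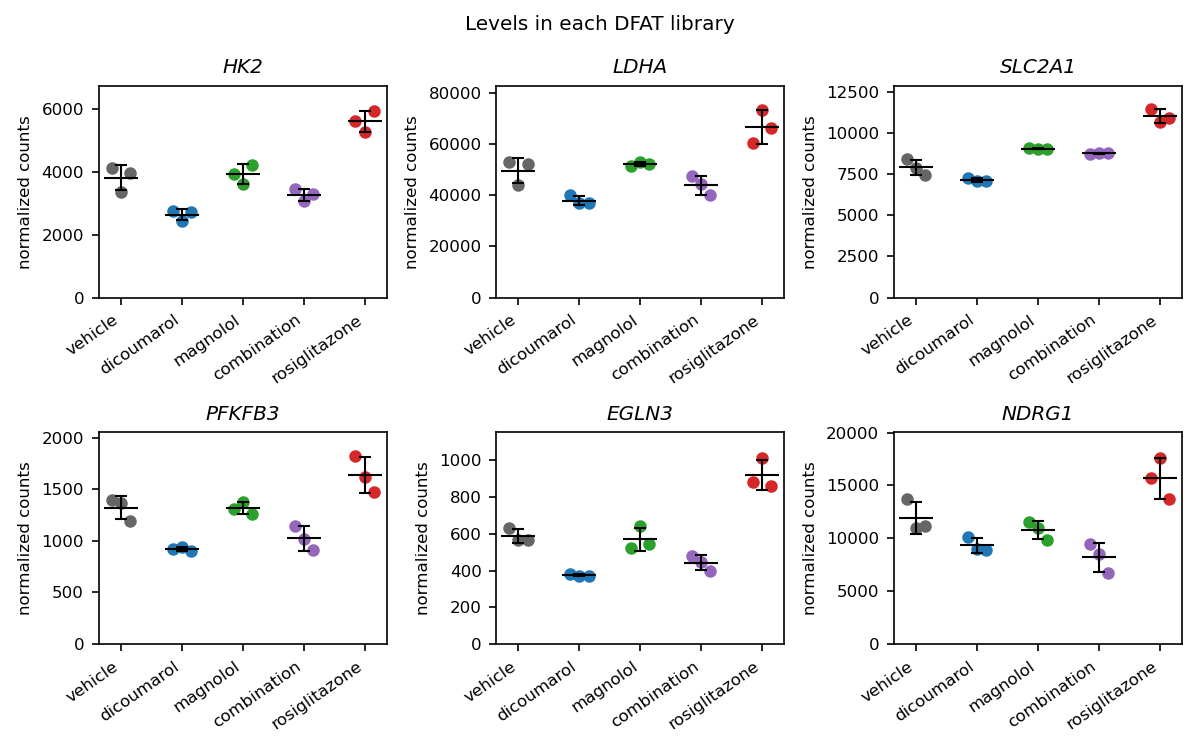
Normalized counts (vertical axes, from 0) of 6 members in each DFAT library, by treatment, with points for libraries and bars for the mean ± SD of 3. In HK2, LDHA, PFKFB3 and EGLN3 the dicoumarol libraries lie below every vehicle library and the rosiglitazone libraries above.

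The glucose transporter moved in opposite directions in the 2 systems. In 3T3-L1 Slc2a1 read 2496, 2082 and 2229.5 with vehicle, 2188, 2002 and 2061 under dicoumarol, 2078, 1952 and 1834 under magnolol, 1961, 1957 and 1690.4 under the combination, and 1768, 1658 and 1476 under rosiglitazone. The rosiglitazone libraries lay below every vehicle library, a fall of 0.47 on the log2 scale (SE 0.10, limma adjusted p = 0.00104). With the combination it was −0.28 ± 0.10, which passed only with the replicate block (limma adjusted p = 0.0132, without it 0.118). In DFAT cells SLC2A1 read 8416, 7880 and 7474 with vehicle, 7305, 7112 and 7079.8 under dicoumarol, 9098, 9072 and 9021 under magnolol, 8754, 8794 and 8814 under the combination, and 11485, 10701 and 10958 under rosiglitazone. All rosiglitazone libraries lay above all others, with 0.48 ± 0.05 (limma adjusted p = 4.84e-06), and magnolol gave 0.20 ± 0.05 (limma adjusted p = 0.042). The magnolol call was lost without vehicle replicate 2 or 3 or magnolol replicate 1, 2 or 3, with no variance trend, when only the groups compared were fitted, with quantile normalization or when scaled to library totals (adjusted p by limma 0.0607 to 0.532).

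Of the lactate carriers, SLC16A3 (MCT4), the exporter of glycolytic cells, rose in DFAT cells with rosiglitazone. It read 1595, 1355 and 1026 with vehicle, 967, 900.1 and 778 under dicoumarol, 1781, 1553 and 1302 under magnolol, 1367, 1308 and 786 under the combination, and 2526, 1935 and 1852 under rosiglitazone. The rosiglitazone libraries lay above vehicle, by 0.68 ± 0.19 (limma adjusted p = 0.03), but the call was lost without vehicle replicate 2 or 3 or rosiglitazone replicate 1, with no filter on low values, with no variance trend or when scaled to library totals (adjusted p by limma 0.052 to 0.144). With dicoumarol all 3 libraries lay below vehicle, at −0.57 ± 0.19, without passing (limma adjusted p = 0.202). In 3T3-L1 Slc16a3 ranged from 10.9 to 40.5 normalized counts, with no call against vehicle. Slc16a1 (MCT1) rose there with rosiglitazone by 0.56 ± 0.21 (limma adjusted p = 0.0445), with overlapping groups, and lost the call without vehicle replicate 1 or 3 or rosiglitazone replicate 1 or 2, with no filter on low values, with no variance trend, when only the groups compared were fitted, with quantile normalization or when scaled to library totals (adjusted p by limma 0.0502 to 0.208).

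Pfkfb3, the kinase-dominant and inducible form of the bifunctional enzyme, gave the largest change of any member in 3T3-L1. Its counts were 298, 374 and 322 with vehicle, 421, 383 and 468 under dicoumarol, 661, 571 and 729 under magnolol, 974, 580.2 and 826 under the combination, and 2641, 1660.5 and 2302 under rosiglitazone. All treated libraries lay above vehicle, with rosiglitazone far above the rest. The log2 fold change was 0.98 ± 0.18 under magnolol, 1.23 ± 0.18 under the combination and 2.71 ± 0.18 under rosiglitazone, a 6.53-fold rise (limma adjusted p = 0.0164, 0.00125 and 1.30e-07). Neither magnolol call was kept in every fit: Pfkfb3 lost its call without vehicle replicate 1 or 3 or magnolol replicate 1 or 3 or with no variance trend (adjusted p by limma 0.0593 to 0.0947), and Hk2 without magnolol replicate 1 or when only the groups compared were fitted (adjusted p by limma 0.0518 to 0.0557). Pfkfb1, the liver and muscle form, read 82.0, 64.2 and 55.8 with vehicle, 91.0, 69.5 and 64.4 under dicoumarol, 101, 86.5 and 82.2 under magnolol, 102, 80.3 and 97.3 under the combination, and 154, 144 and 149 under rosiglitazone. It rose with rosiglitazone by 1.15 ± 0.18 (limma adjusted p = 0.000121). Pfkfb2, the heart form, was lower with rosiglitazone, −0.35 ± 0.13 (limma adjusted p = 0.0493). That call was not kept without vehicle replicate 2 or rosiglitazone replicate 1, 2 or 3, with no filter on low values, with a pseudocount of 10, with no variance trend, when only the groups compared were fitted or with limma-voom (adjusted p by limma 0.0513 to 0.239).

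In DFAT cells PFKFB3 read 1400.1, 1369 and 1198 with vehicle, 921, 939 and 901 under dicoumarol, 1314, 1382 and 1262 under magnolol, 1149, 1018 and 907 under the combination, and 1819, 1619 and 1469.6 under rosiglitazone. The dicoumarol libraries lay close together and below every vehicle library. It fell by 0.52 on the log2 scale under dicoumarol and by 0.37 under the combination, and rose by 0.30 ± 0.09 under rosiglitazone (limma adjusted p = 0.00423, 0.014 and 0.0405). The combination call was lost without vehicle replicate 1 or 2 or combination replicate 3 (adjusted p by limma 0.0512 to 0.0803), and the rosiglitazone call without vehicle replicate 1, 2 or 3 or rosiglitazone replicate 1 or 2, with no filter on low values, with no variance trend, when only the groups compared were fitted or when scaled to library totals (adjusted p by limma 0.0516 to 0.171). PFKFB2 and PFKFB4 did not pass against vehicle.

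**Figure D3:**
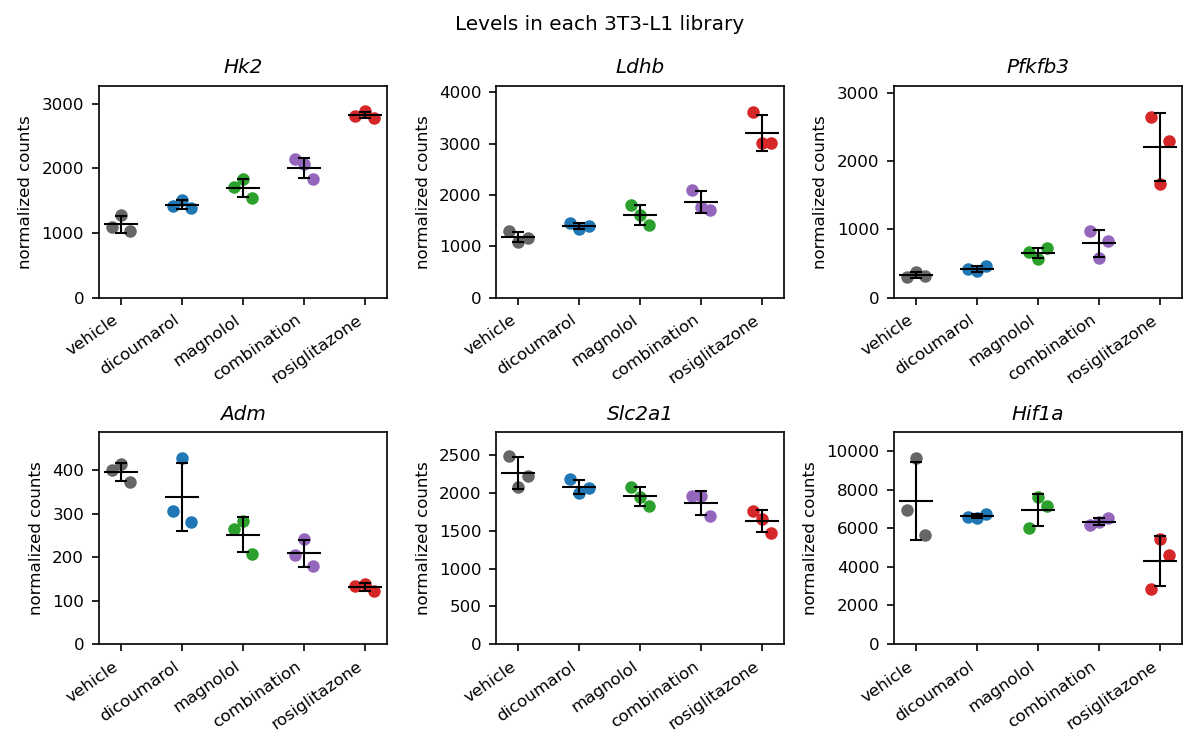
Normalized counts (vertical axes, from 0) of 6 members in each 3T3-L1 library, by treatment, with points for libraries and bars for the mean ± SD of 3. Hk2, Ldhb and Pfkfb3 climb from vehicle to rosiglitazone, while the means of Adm, Slc2a1 and Hif1a are lowest with rosiglitazone.

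Of the oxygen-sensing genes, Hif1a also split by system. In 3T3-L1 it read 6938, 9624 and 5648 with vehicle, 6607, 6521 and 6743 under dicoumarol, 5998, 7636 and 7176 under magnolol, 6153, 6339 and 6539 under the combination, and 2862, 5435 and 4592 under rosiglitazone. The rosiglitazone libraries lay below vehicle, the first well below the other two, with −0.80 ± 0.20 (limma adjusted p = 0.00433). In DFAT cells HIF1A read 36957, 33170 and 38521 with vehicle, 33306, 32113 and 32961 under dicoumarol, 34998, 33398 and 36001 under magnolol, 36860.2, 35283 and 38912 under the combination, and 39346, 45124 and 42432 under rosiglitazone. It rose slightly with rosiglitazone, by 0.22 ± 0.07 (limma adjusted p = 0.0467). That call was not kept without vehicle replicate 1 or 2 or rosiglitazone replicate 2 or 3, with no filter on low values, with no variance trend or when only the groups compared were fitted (adjusted p by limma 0.0665 to 0.22). The hydroxylase EGLN3, itself a HIF-1 target, was the member most lowered by dicoumarol in DFAT cells. It read 633, 568 and 568 with vehicle, 379, 370 and 373 under dicoumarol, 523, 642 and 546 under magnolol, 482, 445 and 400 under the combination, and 882, 1014 and 863 under rosiglitazone. The dicoumarol and combination libraries lay below vehicle and the rosiglitazone libraries above. The changes were −0.65 ± 0.10, −0.42 ± 0.10 and 0.64 ± 0.10 (limma adjusted p = 0.000931, 0.00893 and 0.000193). The combination call was lost without vehicle replicate 1 or combination replicate 3 (adjusted p by limma 0.0513 to 0.0539). EGLN1, the main oxygen sensor, fell by 0.31 with the combination (limma adjusted p = 0.00552). Egln1 and Egln3 did not pass in 3T3-L1 in any comparison with vehicle.

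Among the low-oxygen targets of 3T3-L1, 4 of 11 fell and 1 rose with rosiglitazone, a share of calls near the 40.1% of all genes that passed. Adm read 400, 414 and 373 with vehicle, 306, 428 and 281 under dicoumarol, 264, 284 and 206 under magnolol, 205, 242 and 181 under the combination, and 133, 139 and 121 under rosiglitazone. The combination and rosiglitazone libraries lay below every vehicle library, as did the magnolol libraries. It fell by 0.93 with the combination and by 1.59 with rosiglitazone, to 0.333 of vehicle (limma adjusted p = 0.0032 and 2.91e-06). P4ha1 and P4ha2, subunits of the collagen prolyl hydroxylase, fell by 0.51 and 0.56, and the histone demethylase Kdm3a by 0.48 (limma adjusted p = 0.00265, 0.000102 and 0.00532). Bnip3 rose. It read 1735, 1510.2 and 1619 with vehicle, 1728, 1580.4 and 1737 under dicoumarol, 1742, 1570.4 and 1628 under magnolol, 1840.2, 1696 and 2049 under the combination, and 2605, 2303 and 2789.7 under rosiglitazone, and its rosiglitazone change was 0.66 ± 0.10 (limma adjusted p = 6.10e-05). Ndrg1, a differentiation-linked stress gene, was −1.35 ± 0.54 under rosiglitazone and did not pass (limma adjusted p = 0.0557). It passed with the replicate block (limma adjusted p = 1.88e-05).

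Vegfa, the angiogenic growth factor, read 2269, 2615 and 3308 with vehicle, 2439.8, 2939.6 and 3093 under dicoumarol, 2801, 2927 and 3904 under magnolol, 3289, 2984 and 3664 under the combination, and 3653, 2644 and 3996 under rosiglitazone in 3T3-L1. Its groups overlapped, and rosiglitazone gave 0.33 ± 0.17 (limma adjusted p = 0.14, and 0.0223 with the replicate block). In DFAT cells VEGFA read 6542, 6797 and 5945 with vehicle, 6137, 5873 and 5762 under dicoumarol, 8093, 7215 and 7838 under magnolol, 6835, 6580.4 and 6819 under the combination, and 11248, 7394 and 10024 under rosiglitazone. The rosiglitazone libraries lay above vehicle, the second close to it, with 0.55 ± 0.11 (limma adjusted p = 0.00178). NDRG1 read 13682, 10991 and 11189 with vehicle, 10121, 9015 and 8849 under dicoumarol, 11573, 10959 and 9848 under magnolol, 9434, 8519.6 and 6724 under the combination, and 15717, 17623 and 13679 under rosiglitazone. It fell by 0.55 with the combination (limma adjusted p = 0.00553) and was 0.39 ± 0.12 under rosiglitazone, where the lowest rosiglitazone library lay just under the highest vehicle library (limma adjusted p = 0.041). That rosiglitazone call was lost without vehicle replicate 2 or 3 or rosiglitazone replicate 1 or 2, with no filter on low values, with no variance trend, when only the groups compared were fitted or when scaled to library totals (adjusted p by limma 0.0587 to 0.161).

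P4HA2 was the member called higher with 3 agents in DFAT cells: 0.37 ± 0.05 under magnolol, 0.25 ± 0.05 under the combination and 0.27 ± 0.05 under rosiglitazone (limma adjusted p = 0.00044, 0.00554 and 0.00267). P4HA1 rose with magnolol, by 0.27 ± 0.05 (limma adjusted p = 0.00539). BHLHE40, a clock-linked repressor, fell by 0.32 with the combination (limma adjusted p = 0.00524). Scaling to library totals ended the P4HA1 call with magnolol (limma adjusted p = 0.0989) and the P4HA2 call with the combination (limma adjusted p = 0.259), and fitting only the groups compared ended the P4HA2 call with rosiglitazone (limma adjusted p = 0.0518). ADM, CA9, ANKRD37, PLOD2 and KDM3A did not pass against vehicle in DFAT cells. Beside these values, the fibroblast and preadipocyte list (7 of 8 genes listed) summed to 2.35e+06 to 2.52e+06 normalized counts with vehicle, 3.23e+06 to 3.33e+06 under dicoumarol, 3.65e+06 to 4.21e+06 under magnolol, 3.67e+06 to 4.32e+06 under the combination and 1.85e+06 to 2.02e+06 under rosiglitazone. The list did not move as one. With dicoumarol COL1A1 rose and DCN and PDGFRA fell among the 6 tested. With magnolol and with the combination COL1A1, COL1A2 and COL3A1 rose and DCN and PDGFRA fell, and with rosiglitazone DCN and PDGFRA fell. The part of these shifts in the members' changes was not tested.

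Treatments were next set against each other. In DFAT cells rosiglitazone stood above the combination for 19 of 33 members and below it for 1, where 17.0% of all genes passed (8.24% higher, 8.79% lower). This contrast uses no vehicle library. The largest gaps were in EGLN3 (1.06 ± 0.10), NDRG1 (0.94 ± 0.12), SLC16A3 (0.90 ± 0.19), HK2 (0.78 ± 0.08) and GAPDH (0.76 ± 0.12), and 10 of 15 glycolytic enzymes were higher (limma adjusted p for the 5 named = 1.03e-06, 2.59e-05, 0.00355, 5.01e-06 and 0.000191). PFKFB4, an isoform of PFKFB3 that also responds to low oxygen, was the 1 member below, −0.42 ± 0.14 (limma adjusted p = 0.0484). That call was not kept without combination replicate 1 or 2 or rosiglitazone replicate 2 or 3, with no filter on low values, with no variance trend, when only the groups compared were fitted or when scaled to library totals (adjusted p by limma 0.0602 to 0.247). The LDHB call was lost without combination replicate 3 or rosiglitazone replicate 3 or when only the groups compared were fitted (adjusted p by limma 0.0611 to 0.0771). Same-numbered libraries of these 2 groups deviated together, and with the block 25 members were called, 22 higher and 3 lower (PFKFB4, PFKM and ADM), where 24.9% of all genes passed. Scaled to library totals, which moved the median of all genes by 0.18, 28 members were higher, where 35.8% of all genes passed (31.6% higher, 4.25% lower).

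In 3T3-L1 rosiglitazone against the combination called 13 of 36 members, 8 higher and 5 lower, where 18.3% of all genes passed (9.53% higher, 8.78% lower). Pfkfb3 (1.48 ± 0.18), Aldoa (0.87 ± 0.18), Ldhb (0.79 ± 0.11), Hk2 (0.49 ± 0.09) and Bnip3 (0.46 ± 0.10) rose further with rosiglitazone, with limma adjusted p = 0.000508, 0.00504, 0.000741, 0.00373 and 0.00509, and kept their calls in every fit without 1 library. Gapdh, Pgam1 and Pfkfb1 were also higher, and Adm, Hif1a, Hk1, P4ha2 and Kdm3a were lower, but each of these 8 lost its call in at least 1 of the fits without combination replicate 1, 2 or 3 or rosiglitazone replicate 1 or 3 (limma adjusted p 0.0506 to 0.255). The count fell to 8 without combination replicate 2 or 3 and to 6 without rosiglitazone replicate 1. With no filter on low values the split was 8 higher and 2 lower, with no variance trend 7 and 2, and with only the groups compared 7 and 1. No share of all genes stands beside the counts of these fits or of those without 1 library. With the replicate block the count was 21, 11 higher and 10 lower, where 33.3% of all genes passed.

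Adding magnolol to dicoumarol raised 4 of 33 members in DFAT cells, where 2.35% of all genes passed (2.0% higher, 0.344% lower): ALDOC (0.73 ± 0.10), SLC2A1 (0.29 ± 0.05), P4HA1 (0.28 ± 0.05) and the collagen lysyl hydroxylase PLOD2 (0.27 ± 0.07), with limma adjusted p = 0.000179, 0.00372, 0.0072 and 0.0383. Of these, only ALDOC kept its call when libraries were scaled to the same total. P4HA1 lost it without dicoumarol replicate 3 or when scaled to library totals (adjusted p by limma 0.0591 to 0.102), SLC2A1 when scaled to library totals (adjusted p by limma 0.105) and PLOD2 without dicoumarol replicate 1, 2 or 3 or combination replicate 1 or 3, with no filter on low values, with no variance trend, with quantile normalization or when scaled to library totals (adjusted p by limma 0.0775 to 0.206). Without dicoumarol replicate 3 the count was 2, with no share of all genes beside it. In 3T3-L1 the same contrast called 0 members with limma and with limma-voom, where limma called 0.0254% of all genes. At an unadjusted p under 0.05 there were 5 members, and the share of all genes at that threshold is not given. Without combination replicate 2 the contrast called 1 member, with no share of all genes beside it. The block called 4 there, where it called 3.62% of all genes: Hk2 (0.48), Pfkfb3 (0.87) and Ldhb (0.41) higher and Adm lower (−0.68).

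Adding dicoumarol to magnolol called 0 members with limma and with limma-voom in either system. At an unadjusted p under 0.05 there were 1 member in 3T3-L1 and 16 in DFAT cells, 15 of the 16 below 0. No share of all genes at that threshold is given, so these counts cannot be compared with genes in general. At the adjusted threshold 0.0% of all genes passed in 3T3-L1. In DFAT cells 0.621% passed (0.385% higher, 0.236% lower). There same-numbered magnolol and combination libraries deviated together, and with the block 6 members were called, where 1.96% of all genes passed: HK2, SLC16A3, PFKFB3, EGLN3 and NDRG1 lower, by 0.26 to 0.45 on the log2 scale, and ALDOC higher, by 0.29. The interaction of the 2 compounds, which asks whether their joint effect departs from the sum of the single effects, called 0 members in both systems with limma, with limma-voom and with the block, where 0.0% of all genes passed in 3T3-L1 and 0.081% in DFAT cells. At an unadjusted p under 0.05 there were 0 members in 3T3-L1 and 5 in DFAT cells. The share of all genes at that threshold is not given.

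Fold changes were then compared between the systems for 31 members tested in both. The difference was called for 2 members under dicoumarol, 5 under magnolol, 8 under the combination and 15 under rosiglitazone, where 0.149%, 3.23%, 11.7% and 38.8% of 9371 matched genes were called. With the replicate block the first 3 counts were 4, 8 and 13, where 1.91%, 10.7% and 22.8% of matched genes were called. Species, induction mix, serum and cell type differ between the systems at once and cannot be told apart. Rosiglitazone raised 5 members in both (Hk2, Tpi1, Gapdh, Ldha and Pfkfb3), and lowered Slc2a1, Hif1a and P4ha2 in 3T3-L1 while raising them in DFAT cells. The share of matched genes called in these ways was not counted. Of the 5, only Hk2 kept its call in both systems in every fit without 1 library. Tpi1 kept it in 2 of 6 such fits in 3T3-L1, Ldha in 5 of 6 there and Pfkfb3 in 1 of 6 in DFAT cells. Gapdh kept it in 4 of 6 in 3T3-L1 and 2 of 6 in DFAT cells, where Hif1a also kept it in 2 of 6. For Slc2a1 the difference was −0.95 ± 0.11 (adjusted p = 3.10e-07 from the limma fits), for P4ha2 −0.83 ± 0.10 (4.61e-07) and for Hif1a −1.02 ± 0.21 (0.000649). Hk2 differed under all 4 treatments, by 0.88 (dicoumarol), 0.54 (magnolol), 1.05 (combination) and 0.76 (rosiglitazone), always in favour of 3T3-L1.

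**Figure D4:**
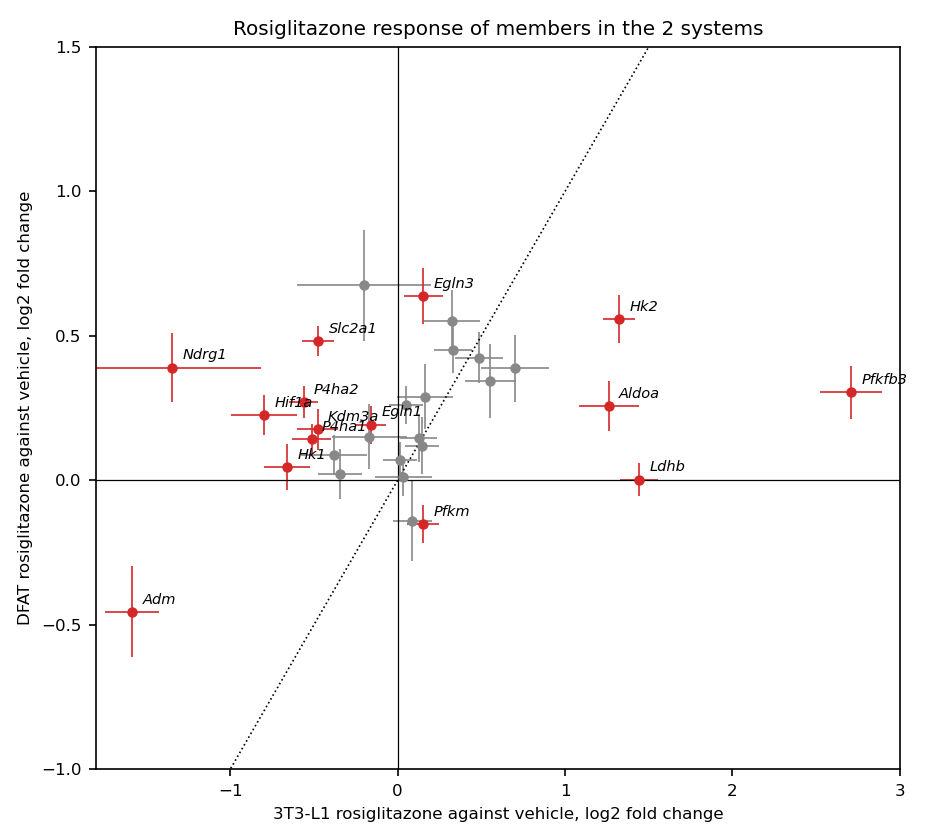
Log2 fold change with rosiglitazone in 3T3-L1 (horizontal axis) and DFAT cells (vertical axis) for the 31 members tested in both, with SE bars, red and named where the difference passed the test, and a dotted line of equal change. Pfkfb3, Hk2, Aldoa and Ldhb lie to the right of the line, and Slc2a1, Hif1a, P4ha2 and Ndrg1 at the upper left. The identity of the pig row named LDHB is uncertain.

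The wider pathway was read from 2 further lists of 30 genes each. Of the other genes of glucose metabolism, 22 were tested in each system. In 3T3-L1 4 rose with magnolol, 5 rose and 1 fell with the combination, and 9 rose and 5 fell with rosiglitazone, where 1.23%, 5.22% and 40.1% of all genes passed. The insulin-responsive transporter Slc2a4 stood at 7.50 ± 2.77 normalized counts (SD, n = 3) in vehicle libraries, 54.3 ± 21.9 under the combination and 222 ± 80.1 under rosiglitazone. Gpd1, which makes glycerol 3-phosphate, stood at 468 ± 435, 2937 ± 1328 and 8292 ± 2472 in the same groups. The neuronal enolase Eno2 fell with rosiglitazone, from 246 ± 20.7 to 120 ± 0.792. In DFAT cells 1 rose with dicoumarol (PCK2, the mitochondrial form of the gluconeogenic carboxykinase), 3 with magnolol and 5 with the combination, and 6 rose and 1 fell with rosiglitazone, where 1.94%, 4.22%, 10.2% and 10.8% of all genes passed. SLC2A4 stood at 3.08 ± 1.40 in vehicle libraries, 47.3 ± 12.0 under magnolol, 65.3 ± 5.17 under the combination and 27.1 ± 7.63 under rosiglitazone. PCK1, the cytosolic form, stood at 13.7 ± 10.1, 184 ± 46.5, 457 ± 95.0 and 1967 ± 421 in the same groups. Pyruvate carboxylase (PCX) was the gene that fell with rosiglitazone, from 5776 ± 956 to 3930 ± 518.

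Of the other oxygen-response genes, 28 were tested in 3T3-L1 and 25 in DFAT cells. In 3T3-L1 1 rose with magnolol, 4 with the combination, and 8 rose and 6 fell with rosiglitazone. The rosiglitazone share, 14 of 28, was near the 40.1% of all genes, and the median log2 fold change of the list was 0.01. Angptl4, a lipase inhibitor that both PPARs and HIF-1 are known to induce, rose from 1314 ± 96.7 in vehicle libraries to 2605 ± 410 under magnolol, 3676 ± 646 under the combination and 9139 ± 1748 under rosiglitazone. Lox, which cross-links collagen, fell from 98137 ± 21063 to 28275 ± 9855 with rosiglitazone, and the hormone Stc1 from 467 ± 28.1 to 176 ± 64.9. In DFAT cells 2 fell with dicoumarol, STC1 from 103 ± 5.32 to 37.5 ± 13.4 and the transferrin receptor TFRC from 33090 ± 1914 to 25619 ± 206. Magnolol called 3 higher and 1 lower, the combination 4 and 4, and rosiglitazone 6 and 1, against the same shares of all genes as for the glucose list. EPAS1, which encodes HIF-2α, fell with the combination, from 57594 ± 3799 to 45310 ± 2859, and ANGPTL4 rose with rosiglitazone from 2246 ± 437 to 8408 ± 1503. All fold changes behind these calls had a limma adjusted p under 0.05 over all genes.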

How the data were processed

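The deposited values are signal: each gene's count was divided by a DESeq2 size factor, with a separate table for each species, per the labels. The submitters' processing notes name bcl2fastq 2.19.1.403, STAR, DESeq2 and, for both species, GRCm38. Counter, strand setting, annotation and filters: not given in the sources used here. Poly(A) RNA was sequenced with dUTP strand marking, per the labels' protocols. Of 39 mouse member rows, 39 had the length of their gene in a GRCm38 annotation but 1 its start, so deposited positions are not printed. A count model was not the main test, because the values were expected to be divided by size factors. Limma-voom was run on the same values as an alternative. Only 81.7% to 82.8% (3T3-L1) and 89.7% to 91.0% (DFAT) of low values came out as whole reads (tolerance 0.02, up to 20 reads).

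The 15723 mouse and 14819 pig genes whose mean over 15 libraries reached 10 entered limma 3.58.1 (R 4.3.3) as log2(value + 1). All 5 groups shared a model with a variance trend, tests were two-sided, and p-values were Benjamini-Hochberg adjusted over all genes, with a threshold of 0.05. Fold changes are on that scale, which understates change in low genes. Differences between systems were divided by the root-sum-square of both standard errors (t distribution, Satterthwaite degrees of freedom, adjusted over 9371 genes with matching symbols). Tables and plots used Python 3.11.15, numpy 2.4.6, pandas 2.3.3, scipy 1.17.1 and matplotlib 3.10.9. The fit was tested on simulated data.

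The members, gene lists and rules were chosen with earlier results of these data known. Values in every library are given for Hif1a, Slc2a1, Gapdh, Ldha, Pkm and Vegfa and, per system, for the 10 called members with the largest change against vehicle. Replicates carry the numbers 1 to 3 in the labels, whose meaning is not stated. In 3T3-L1 all 30 same-numbered pairs had deviations from group means correlating above 0.1 (0.106 to 0.462), so the numbers pair libraries. The median of −0.142 between different numbers follows largely from subtracting group means and is no separate evidence. In DFAT cells all same-numbered pairs correlated above 0.1 only among magnolol, combination and rosiglitazone. The main fits leave this pairing out in both systems. Results with the block are given beside them or in the closing section, but not for every comparison. Those of magnolol and rosiglitazone with vehicle in DFAT cells are among the ones left out. The block gained calls and lost 0. Alternatives were no filter, other pseudocounts, no trend, only the groups compared, quantile normalization, the replicate block, limma-voom and leaving out each library. Scaling to library totals and adding copies to 3T3-L1 members were chosen after seeing the data. The copies were pseudogenes, except Eno1b, which is listed as protein-coding.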

Additional observations from a re-analysis of the deposited data

Results flagged for a closer look

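For 30 pairs of a member and a treatment the log2 fold change against vehicle differed between the systems by a test of the difference itself (from the limma fits, adjusted over 9371 genes). Values are 3T3-L1 minus DFAT on the log2 scale. With dicoumarol the change was higher in 3T3-L1 for Hk2 (0.88) and Egln3 (0.79). With magnolol the change was higher in 3T3-L1 for Pfkfb3 (0.98), Ldhb (0.69) and Hk2 (0.54), and lower for P4ha2 (−0.67) and Slc2a1 (−0.41). With the combination the change was higher in 3T3-L1 for Pfkfb3 (1.60), Hk2 (1.05), Ldhb (0.86), Aldoa (0.76) and Egln3 (0.52), and lower for Adm (−0.68), P4ha2 (−0.48) and Slc2a1 (−0.43). With rosiglitazone the change was higher in 3T3-L1 for Pfkfb3 (2.40), Ldhb (1.44), Aldoa (1.00), Hk2 (0.76) and Pfkm (0.30), and lower for Ndrg1 (−1.74), Adm (−1.13), Hif1a (−1.02), Slc2a1 (−0.95), P4ha2 (−0.83), Hk1 (−0.71), P4ha1 (−0.66), Kdm3a (−0.66), Egln3 (−0.49) and Egln1 (−0.35).

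Pfkfb3 gave the largest of these 30 differences, with rosiglitazone. Same-signed changes of unequal size gave the differences of Hk2, Pfkfb3, Aldoa and Adm with rosiglitazone, while Slc2a1, Hif1a and P4ha2 were called in opposite directions. The Hif1a call in DFAT cells was kept in 2 of 6 fits without 1 library. The pig row named LDHB spans 1281 bases on chromosome 2, and its identity is uncertain. In mouse the copy Ldhb-ps held 50.4% of the level of Ldhb. Whether the Ldhb differences compare the same gene was not tested. The systems differ in species, cell type, induction mix and serum, which cannot be told apart. No member was tested for a library far from its group, since groups held 3 libraries.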

How the results depend on the processing

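Across the alternatives, the 165 member fold changes that were called or given by library kept direction and side of the threshold in 2312 recomputed values, lost the call in 178, gained one in 31, moved by over 1 SE without a call in 31 and reversed in 0. With the replicate block the count of members called became 1 (dicoumarol), 5 (magnolol), 11 (combination), 4 (combination against dicoumarol) and 21 (rosiglitazone against combination) in 3T3-L1, and 16 (dicoumarol), 17 (combination), 7 (combination against dicoumarol) and 6 (combination against magnolol) in DFAT cells. In DFAT cells the block called 4.52%, 17.8%, 6.03% and 1.96% of all genes in these comparisons. Same-numbered dicoumarol and vehicle libraries there correlated at 0.0747 to 0.193, not all above 0.1, so whether their numbers pair libraries is unclear. Over all members and comparisons the block gained 67 calls, 15 of them among the 31 above, and lost 0. For the differences between systems the block gave 4 (dicoumarol), 8 (magnolol) and 13 (combination). Fitting only the groups compared gave 1 (magnolol) and 8 (rosiglitazone against combination) in 3T3-L1 and 10 (dicoumarol), 2 (magnolol) and 9 (rosiglitazone) in DFAT cells. Without the variance trend the count was 1 for magnolol in 3T3-L1, 9 for rosiglitazone in DFAT cells and 1 for the dicoumarol difference between systems, and with no filter 9 for rosiglitazone in DFAT cells. Scaled to library totals, DFAT cells gave 9 (dicoumarol), 18 (combination) and 1 (combination against dicoumarol), where 305, 4531 and 327 of 14819 genes were called. Leaving out 1 library gave, in 3T3-L1, 0 to 2 (magnolol), 0 to 1 (combination against dicoumarol), 4 to 4 (combination), 16 to 20 (rosiglitazone) and 6 to 14 (rosiglitazone against combination), and in DFAT cells 3 to 6 (dicoumarol), 2 to 5 (magnolol), 5 to 12 (combination), 8 to 13 (rosiglitazone), 2 to 4 (combination against dicoumarol) and 18 to 21 (rosiglitazone against combination). No share of all genes stands beside the counts with only the groups compared, no trend, no filter or 1 library left out. Whether members shifted more than genes in general under those settings cannot be read from them. The cause of these shifts was not tested. Slc16a3, Pfkfb1 and Ndrg1 in 3T3-L1 were among the lowest members, where 3 libraries a group limit what can be seen.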
